A study of Mus musculus with 12 samples.

Results

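A set of 10 genes of the Notch pathway was followed across osteoblasts and endothelial cells sorted from mouse long bones: the ligand genes Dll1, Dll4, Jag1 and Jag2, the receptor genes Notch1, Notch2 and Notch4, and the target genes Hes1, Hey1 and Hey2. They were taken by name, with earlier results of these data known. They are 10 of 19937 genes with a probe set that the platform annotation gives to 1 gene symbol, and each had 1 such probe set. Of these, 9 entered the tests, and Hey2 did not pass the filter on dim genes.

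All groups came from female C57BL/6 mice, and the labels name no transgene or engineered allele and give no age. Tumor-bearing mice had received 500000 EO771 cells, a mouse mammary cancer line, by injection into the heart, and the cells had grown in the long bones for about 2 weeks. The osteoblast gate took CD51+ cells negative for GFP, TR119, CD45, SCA1 and CD31, and the endothelial gate took cells positive for SCA1 and CD31 and negative for GFP, TR119 and CD45. Osteoblasts of tumor-free mice, osteoblasts of tumor-bearing mice, endothelial cells of tumor-free mice and endothelial cells of tumor-bearing mice each had 3 arrays, from replicates the labels call biological, and each RNA sample came from 5000 cells. Whether 1 replicate pools several mice, and whether both cell types of a replicate came from the same mice, is not given in the sources used here.

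Notch signaling passes between touching cells. A ligand of the Delta-like or Jagged family on 1 cell binds a receptor on its neighbor, ADAM proteases and gamma-secretase cut the receptor, and its freed intracellular domain joins the DNA-binding protein RBPJ to switch on genes of the Hes and Hey families. In bone, endothelial Dll4 and Notch1 are known for their part in vessel growth, Notch signaling in the osteoblast lineage restrains maturation, and Jag1 on breast cancer cells is known to engage Notch in bone cells.

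The promoters of the 4 genes that differed between the cell types in both kinds of mice, Dll4, Notch1, Notch2 and Notch4, are shown first, with that of Hey2, the 1 member among those with a window whose window held RBPJ motifs. RefSeq's promoter table (assembly GRCm38.p6) held windows for 8 of the 10 members, without Hes1 and Hey1, each from 250 bases before to 50 bases after the start site, on the coding strand from 5′ to 3′. In Dll4 (chr2:119325534-119325833, plus strand), Notch1 (chr2:26503773-26504072, minus strand), Notch2 (chr3:98013288-98013587, plus strand) and Notch4 (chr17:34564045-34564344, plus strand), capitals mark the GC box GGGCGG or its reverse complement CCGCCC. In Hey2 (chr10:30842734-30843033, minus strand), capitals mark the extended RBPJ motif GTGGGAA or its reverse complement TTCCCAC.
Dll4: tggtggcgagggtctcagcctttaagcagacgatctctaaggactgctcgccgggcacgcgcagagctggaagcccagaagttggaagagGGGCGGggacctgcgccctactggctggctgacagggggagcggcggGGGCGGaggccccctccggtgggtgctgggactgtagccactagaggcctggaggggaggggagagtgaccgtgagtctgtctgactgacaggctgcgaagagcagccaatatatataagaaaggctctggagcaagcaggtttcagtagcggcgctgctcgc
Notch1: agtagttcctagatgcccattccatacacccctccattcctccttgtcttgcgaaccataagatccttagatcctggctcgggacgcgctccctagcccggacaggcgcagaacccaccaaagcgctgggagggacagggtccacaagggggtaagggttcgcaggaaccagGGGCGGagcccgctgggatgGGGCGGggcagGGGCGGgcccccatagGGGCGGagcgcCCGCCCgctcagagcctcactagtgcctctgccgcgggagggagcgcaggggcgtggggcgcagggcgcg
Notch2: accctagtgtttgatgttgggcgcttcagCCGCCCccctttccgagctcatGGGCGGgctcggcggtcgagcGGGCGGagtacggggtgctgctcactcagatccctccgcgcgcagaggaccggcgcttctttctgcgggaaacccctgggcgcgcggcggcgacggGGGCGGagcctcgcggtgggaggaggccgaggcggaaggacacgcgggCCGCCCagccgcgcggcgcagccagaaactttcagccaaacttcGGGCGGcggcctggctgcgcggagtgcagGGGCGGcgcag
Notch4: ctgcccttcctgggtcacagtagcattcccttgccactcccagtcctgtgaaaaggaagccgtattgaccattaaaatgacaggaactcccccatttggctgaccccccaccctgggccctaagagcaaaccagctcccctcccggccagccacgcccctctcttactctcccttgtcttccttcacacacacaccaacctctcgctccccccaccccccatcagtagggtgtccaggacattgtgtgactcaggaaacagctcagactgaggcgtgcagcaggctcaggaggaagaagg
Hey2: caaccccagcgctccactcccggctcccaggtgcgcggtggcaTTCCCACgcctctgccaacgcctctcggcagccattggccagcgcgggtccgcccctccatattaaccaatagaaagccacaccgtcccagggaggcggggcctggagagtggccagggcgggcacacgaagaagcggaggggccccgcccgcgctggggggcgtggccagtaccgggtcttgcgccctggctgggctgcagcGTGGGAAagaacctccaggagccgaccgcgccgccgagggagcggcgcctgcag

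In all, 5 motifs were searched on both strands of these windows. The RBPJ core TGGGAA, which lies inside the extended motif GTGGGAA, was in 25.6% of all 32851 windows of the same length and the extended motif in 6.38%. Among the 8 members searched both were found in the Hey2 window alone, with the leftmost bases of the 2 extended matches at positions -207 and -4 from the start site. The GC box, bound by SP family factors, was in 35.7% of all windows, and matched at 2 places in Dll4, 5 in Jag2, 5 in Notch1, 7 in Notch2 and 3 in Hey2, with no match in Dll1, Jag1 or Notch4. The E-box CACGTG (7.15% of all windows) and the ETS core CCGGAA (14.9%) had no match in the members' windows. A match describes the letters of these 300 bases, and binding was not measured.

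Marker lists of endothelial cells and osteoblasts separated the sorted populations as labelled. The median over 15 endothelial markers lay between 9.36 and 10.08 on the endothelial arrays and between 5.94 and 6.26 on the osteoblast arrays, as log2 values. Of 13 osteoblast markers listed, 10 had a probe set of their own. The median over these 10 lay at 10.40 or above on the osteoblast arrays and between 6.14 and 6.79 on the endothelial ones. Itgav, the gene of CD51, had means of 7.70 and 7.93 in endothelial cells of tumor-free and tumor-bearing mice. Osteoblasts exceeded these by 1.41 in tumor-free mice (adjusted p = 0.0341 by limma) and by 0.93 in tumor-bearing mice (adjusted p = 0.172). Chondrocyte markers had medians from 7.96 to 10.17 on the osteoblast arrays, monocyte and macrophage markers from 6.27 to 7.35, and neutrophil markers reached 8.06 on 1 array, tumor-free osteoblast replicate 3. Array medians over 34760 probe sets were 5.95 to 6.04 and the arrays' 40th percentiles 5.51 to 5.61, so a value near 5.5 lies in the range of dim probe sets. All values below are log2 expression values of a gene's probe set, and levels of different genes are not compared with each other.

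Osteoblasts and endothelial cells of tumor-free mice were compared to see which cell type carried which Notch gene in bone without tumor. Notch1, Notch4, Dll4 and Hes1 were lower in osteoblasts and Notch2 was higher, by 1.63-fold to 2.21-fold. These were 5 of the 9 tested genes, 4 lower and 1 higher, where 12.4% of all 14217 genes tested passed the same threshold (5.38% higher and 7.00% lower in osteoblasts). At an unadjusted p under 0.05 there were 6 of the 9, against 23.5% of all genes tested. A gene was called where limma's moderated test, adjusted by Benjamini-Hochberg over all genes tested, gave a p under 0.05. The median difference over the 9 genes was -0.47, against -0.01 over all genes tested. Since the members were chosen with earlier results of these data known, their shares in either kind of mice describe the list and do not test it. In bulk RNA of a sorted population, fewer cells of a type and less RNA per cell cannot be told apart.

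**Figure D1:**
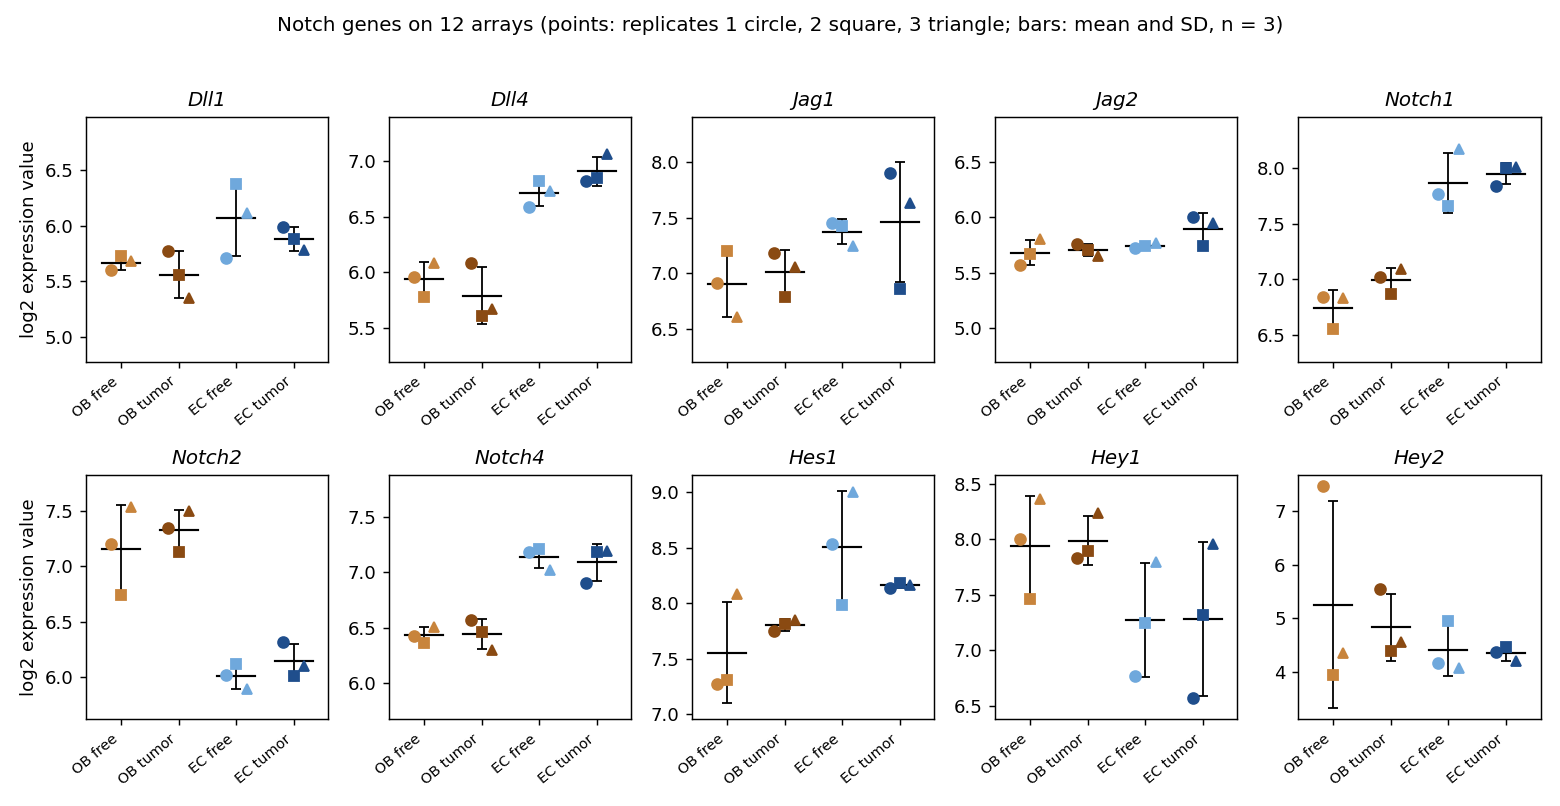
Log2 expression value of the 10 Notch genes on each of the 12 arrays. Points are replicates, lines and bars are the mean and SD of 3 arrays, OB and EC are osteoblasts and endothelial cells, and free and tumor are tumor-free and tumor-bearing mice. Notch1, Notch4 and Dll4 sit higher on all 6 endothelial arrays, Notch2 sits higher on all 6 osteoblast arrays, and Hey2 has 1 array at 7.46 far above the others.

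Among the ligands, Dll4, the Delta-like ligand of sprouting and arterial vessels, separated the cell types. Its values were 5.96, 5.78 and 6.08 in osteoblasts of tumor-free mice, and 6.59, 6.82 and 6.73 in endothelial cells of tumor-free mice. In tumor-bearing mice they were 6.08, 5.61 and 5.67 in osteoblasts and 6.82, 6.85 and 7.06 in endothelial cells. All 6 endothelial arrays lay above all 6 osteoblast arrays. Dll4 was 1.71-fold lower in osteoblasts of tumor-free mice (log2 difference -0.77, SE 0.15, adjusted p = 0.00544 by limma) and 2.18-fold lower in those of tumor-bearing mice (-1.12, SE 0.15, adjusted p = 0.000574). The median over 10 arterial endothelial markers was 6.48 to 6.85 on the endothelial arrays and 6.05 to 6.23 on the osteoblast arrays. The median difference over these markers was -0.42 in tumor-free mice, with 3 of 10 higher in osteoblasts, and -0.87 in tumor-bearing mice, with 1 of 10 higher. Sinusoidal and venous endothelial markers lay farther apart. Their median was 9.09 to 9.26 on the endothelial and 6.29 to 6.57 on the osteoblast arrays, with median differences of -1.98 and -2.16.

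Jag1, the Jagged ligand, had values of 6.91, 7.20 and 6.61 in osteoblasts and 7.45, 7.43 and 7.25 in endothelial cells of tumor-free mice. The groups did not overlap, but the difference of -0.47 (95% interval -1.01 to 0.08) had an adjusted p of 0.30. In tumor-bearing mice its values were 7.18, 6.79 and 7.06 in osteoblasts against 7.90, 6.86 and 7.63 in endothelial cells. There the groups overlapped through endothelial replicate 2, with a difference of -0.45 (-1.0 to 0.09, adjusted p = 0.322). Without that array the difference was -0.76 and passed the threshold (adjusted p = 0.0398).

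Dll1, a Delta-like ligand, was near the dim range, at 5.6, 5.73 and 5.68 in tumor-free osteoblasts and 5.71, 6.38 and 6.12 in tumor-free endothelial cells. In tumor-bearing mice it was 5.77, 5.56 and 5.35 against 5.99, 5.88 and 5.78, groups that did not overlap. The differences of -0.39 and -0.33 were not called (adjusted p = 0.182 and 0.289). Without tumor-free endothelial replicate 1 the first was -0.57 and passed the threshold (adjusted p = 0.0432). Jag2, the other Jagged ligand, lay between 5.57 and 6.00 on all 12 arrays. Its differences between the cell types were -0.06 (95% interval -0.29 to 0.16) in tumor-free and -0.19 (-0.42 to 0.03) in tumor-bearing mice.

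The 3 receptors all differed between the cell types, in opposite directions. Notch1, the receptor best known from vessels and blood cells, had values of 6.84, 6.55 and 6.83 in tumor-free osteoblasts, and 7.77, 7.66 and 8.17 in tumor-free endothelial cells. In tumor-bearing mice osteoblasts had 7.02, 6.87 and 7.09 and endothelial cells 7.84, 8.0 and 8.01. Every endothelial array lay above every osteoblast array. Notch1 was 2.18-fold lower in osteoblasts of tumor-free mice (log2 difference -1.12, SE 0.15, adjusted p = 0.000498 by limma) and 1.94-fold lower in those of tumor-bearing mice (-0.96, SE 0.15, adjusted p = 0.00165).

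Notch4, a receptor found mainly in endothelium, ran the same way at smaller size. Osteoblasts had 6.43, 6.36 and 6.51 in tumor-free and 6.57, 6.46 and 6.30 in tumor-bearing mice. Endothelial cells had 7.18, 7.21 and 7.02 in tumor-free and 6.90, 7.18 and 7.19 in tumor-bearing mice. The lowest endothelial value exceeded the highest osteoblast value. Notch4 was 1.63-fold lower in osteoblasts of tumor-free mice (-0.70, SE 0.12, adjusted p = 0.00271) and 1.57-fold lower in those of tumor-bearing mice (-0.65, SE 0.12, adjusted p = 0.00498). A further 4 probe sets name Notch4 together with another gene and were not used.

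Notch2, the receptor whose mutations cause a human disorder of bone loss, ran the other way. Its values were 7.20, 6.74 and 7.53 in tumor-free osteoblasts and 7.34, 7.13 and 7.50 in tumor-bearing ones. Endothelial cells had 6.02, 6.12 and 5.89 in tumor-free and 6.32, 6.01 and 6.10 in tumor-bearing mice. Every osteoblast array lay above every endothelial one. Notch2 was 2.21-fold higher in osteoblasts of tumor-free mice (log2 difference 1.15, SE 0.19, adjusted p = 0.00249 by limma) and 2.27-fold higher in those of tumor-bearing mice (1.18, SE 0.19, adjusted p = 0.00236).

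Several marker lists of other cells also had higher values in osteoblast than in endothelial samples of tumor-free mice, among them chondrocyte markers (median difference 2.49, 12 of 12 higher), marrow stromal markers (1.92, 9 of 10 higher) and those of monocytes and macrophages, which also express Notch2. The gate took CD45- cells, and Ptprc, the gene of CD45, differed by 0.18 in tumor-free (adjusted p = 0.865) and 0.86 in tumor-bearing mice (adjusted p = 0.286). In tumor-bearing mice the Ptprc groups did not overlap. Of 10 markers of all blood cells, 8 were higher in osteoblast than in endothelial samples of tumor-free mice and 7 in tumor-bearing mice. Their median differences were 0.35 and 0.12. The median over 11 monocyte and macrophage markers was 6.41, 6.27 and 7.35 on the tumor-free osteoblast arrays and 7.08, 6.90 and 7.28 on the tumor-bearing ones, against 5.32 to 5.84 on the endothelial arrays. Of these markers 10 of 11 were higher in osteoblast than in endothelial samples of tumor-free mice, and 11 of 11 in tumor-bearing mice, with median differences of 1.04 and 1.21. Within the osteoblast arrays Notch2 was lowest where the monocyte and macrophage median was lowest (tumor-free replicate 2) and highest where it was highest (tumor-free replicate 3). The neutrophil median was also highest on tumor-free replicate 3, at 8.06, but lowest on tumor-bearing replicate 3, at 5.91. Of 12 neutrophil markers 12 were higher in osteoblast than in endothelial samples of tumor-free mice, with a median difference of 1. The median over markers of all blood cells was also lowest on tumor-free replicate 2, at 5.61, but highest on tumor-bearing replicate 3, at 6.81. The chondrocyte and marrow stromal lists ran otherwise. The chondrocyte median was highest, at 10.17, on tumor-free replicate 2, and the marrow stromal median was highest, at 9.07, on tumor-free replicate 1. The part of any of these cells in the Notch2 difference was not tested. Without tumor-free osteoblast replicate 3 the difference in tumor-free mice was 0.96 (adjusted p = 0.00658).

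**Figure D2:**
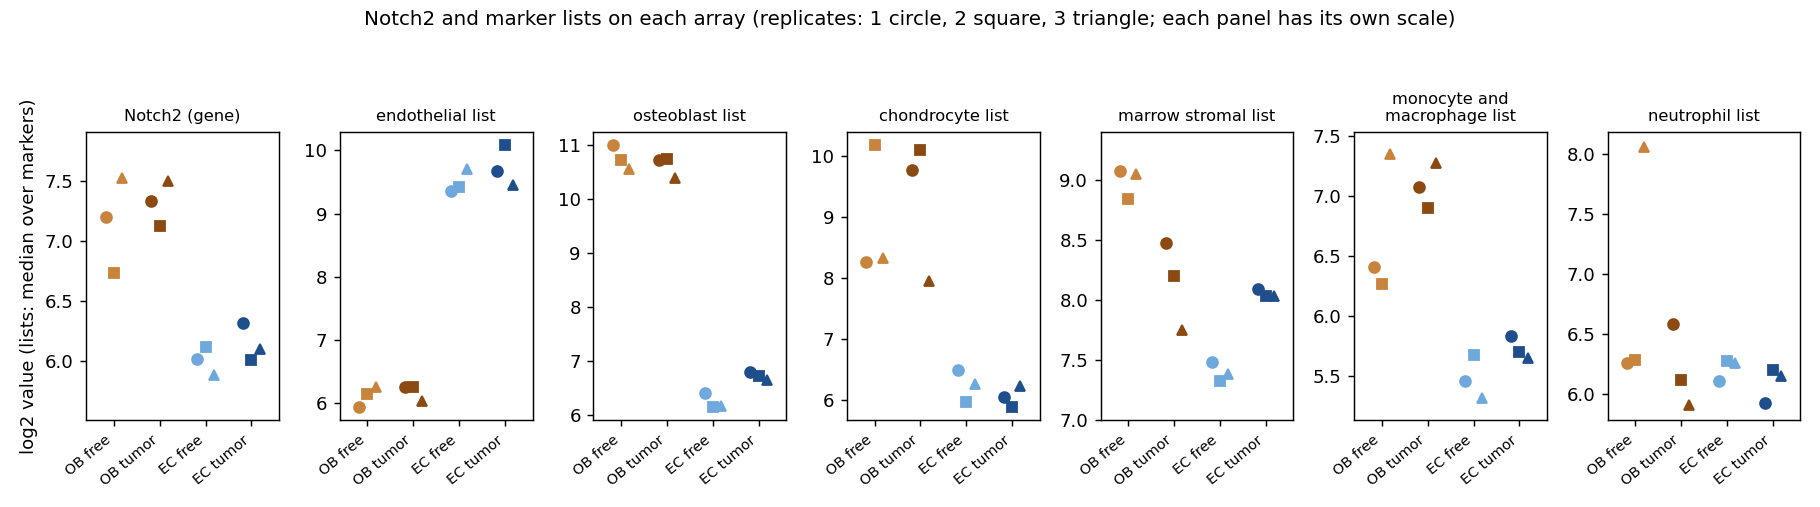
Notch2 (log2 value) and the median log2 value of 6 marker lists on each of the 12 arrays. Points are replicates, OB and EC are osteoblasts and endothelial cells, free and tumor are tumor-free and tumor-bearing mice, and each panel has its own axis. Notch2 and the monocyte and macrophage list are both higher on all 6 osteoblast arrays, and both are highest on tumor-free osteoblast replicate 3, as is the neutrophil list. The chondrocyte list is highest on tumor-free osteoblast replicate 2 and the marrow stromal list on tumor-free osteoblast replicate 1.

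Of the targets, Hes1, a transcriptional repressor switched on by Notch and by other signals, was at 7.27, 7.31 and 8.08 in tumor-free osteoblasts and at 8.53, 7.98 and 9.0 in tumor-free endothelial cells. The groups overlapped, since osteoblast replicate 3 lay above endothelial replicate 2. Hes1 was 1.93-fold lower in osteoblasts of tumor-free mice (log2 difference -0.95, SE 0.26, adjusted p = 0.036 by limma). This call was kept in 11 of 22 alternative settings, and without single arrays the adjusted p ran from 0.00883 to 0.122. Leaving out 9 of the 12 arrays, each on its own, took it over the threshold, among them every tumor-free array but osteoblast replicate 3 and endothelial replicate 2. Osteoblast replicate 3 is also the array with the neutrophil marker median of 8.06, and the part of those cells in its Hes1 value was not tested.

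In tumor-bearing mice the 3 osteoblast values of Hes1, 7.75, 7.81 and 7.85, lay close together, as did the 3 endothelial values, 8.14, 8.18 and 8.16. The groups did not overlap, and the difference was -0.35 (95% interval -0.92 to 0.22, adjusted p = 0.487 by limma). This interval rests on a spread pooled over all 4 groups. The SDs of osteoblasts and endothelial cells were 0.05 and 0.02 in tumor-bearing but 0.45 and 0.51 in tumor-free mice. In the 22 alternative settings the adjusted p ran from 0.0876 to 0.631, and none called the difference. The change of the difference itself was 0.60 (-0.21 to 1.40, adjusted p = 0.837), so a smaller gap in tumor-bearing mice was not shown.

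Hey1, a repressor of the Hey family, was spread widely. It read 8.0, 7.46 and 8.36 in tumor-free osteoblasts and 6.77, 7.25 and 7.80 in tumor-free endothelial cells. In tumor-bearing mice the values were 7.83, 7.90 and 8.24 against 6.57, 7.32 and 7.96. In every group replicate 3 had the highest value, and the cause of this was not tested. Endothelial replicate 3 reached into the osteoblast range in both kinds of mice. The differences of 0.67 (95% interval -0.14 to 1.48, adjusted p = 0.319) and 0.71 (-0.11 to 1.52, adjusted p = 0.293) were not called.

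Hey2, known from arterial endothelium and heart, exceeded its array's 40th percentile on 2 arrays, and both were osteoblast arrays. It read 7.46, 3.95 and 4.36 in tumor-free osteoblasts, 5.55, 4.40 and 4.57 in tumor-bearing osteoblasts, and between 4.08 and 4.96 on the 6 endothelial arrays. The value of 7.46 stands apart from the other 11 arrays, and the SD of its group was 1.92. With no filter the difference in tumor-free mice was 0.85 (SE 0.75, adjusted p = 0.619).

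In tumor-bearing mice 4 of the 9 tested genes were called between the cell types, 3 lower in osteoblasts (Dll4, Notch1, Notch4) and 1 higher (Notch2), where 10.6% of all genes tested were called (5.68% lower and 4.89% higher). At an unadjusted p under 0.05 there were also 4, against 22.8% of all genes tested. The median difference over the 9 genes was -0.35, against -0.03 over all genes. The groups did not overlap for 5 of the 9 genes in tumor-free and 6 in tumor-bearing mice, where the same held for 29.4% and 28.1% of all genes tested. Dll4, Notch1, Notch2 and Notch4 were called in both kinds of mice under each of the 22 alternative settings.

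**Figure D3:**
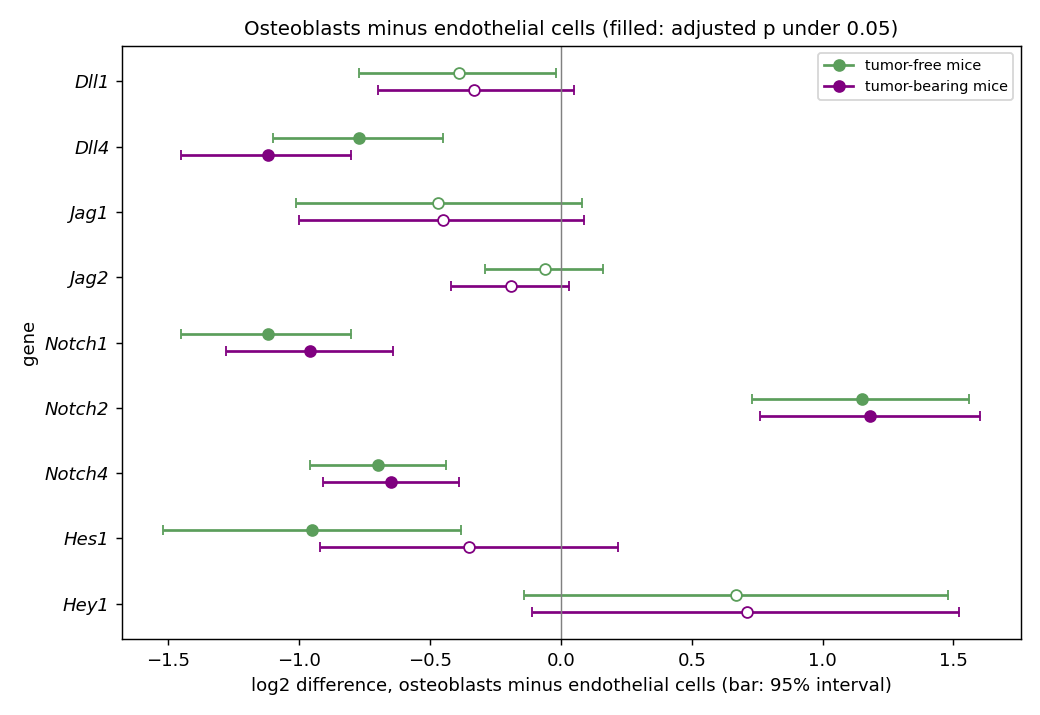
Log2 difference of the 9 tested Notch genes, osteoblasts minus endothelial cells, in tumor-free and in tumor-bearing mice, with 95% intervals. Filled points had an adjusted p under 0.05. Dll4, Notch1 and Notch4 lie below 0 and Notch2 above 0 in both kinds of mice, while Hes1 is filled in tumor-free mice alone.

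The other genes of the pathway were taken from a list of 50, of which 47 had a probe set of their own and passed the filter. The other 3 were not analysed here. In tumor-free mice 5 of the 47 were lower in osteoblasts and 1 was higher, and in tumor-bearing mice likewise 5 were lower and 1 was higher. That is 12.8% of the list in each case, near the share of all genes tested. The median difference over the list was -0.11 in tumor-free and -0.12 in tumor-bearing mice.

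Egfl7, a secreted endothelial protein that can modulate Notch signaling, differed most among these by p. It lay between 6.87 and 7.32 on the osteoblast arrays and between 9.46 and 10.16 on the endothelial arrays, with no overlap, and was 6.59-fold and 6.94-fold lower in osteoblasts of tumor-free and tumor-bearing mice (-2.72, adjusted p = 8.75e-06, and -2.79, adjusted p = 7.73e-06, by limma). It is also 1 of the 15 endothelial markers. Nrarp, a Notch target that limits the signal, was at 5.22 to 5.96 on the osteoblast and 6.53 to 7.02 on the endothelial arrays. Its differences were -1.05 (adjusted p = 0.00615) and -1.12 (adjusted p = 0.00489). Numb, which inhibits Notch in the receiving cell, was at 6.70 to 8.22 and 8.75 to 9.63, with differences of -1.71 (adjusted p = 0.00561) and -1.72 (adjusted p = 0.00623).

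Psen2, a catalytic subunit of gamma-secretase, was lower in osteoblasts in both kinds of mice, with differences of -1.03 (adjusted p = 0.0106) and -0.85 (adjusted p = 0.0324). The second of these was called in 15 of 22 alternatives. Mib1, an E3 ligase that helps ligands signal, was lower in tumor-free osteoblasts (-0.75, adjusted p = 0.0436), a call kept in 10 of 22 alternatives. Mfng, a glycosyltransferase that tunes receptors, was lower in tumor-bearing osteoblasts (-0.88, adjusted p = 0.0154), and its tumor-free difference was -0.54 (adjusted p = 0.109).

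Rbpj, the DNA-binding partner of all 4 mouse Notch receptors, was the gene called higher in osteoblasts, by 0.97 in tumor-free (adjusted p = 0.00421) and 0.67 in tumor-bearing mice (adjusted p = 0.036). The second call was kept in 12 of 22 alternatives. A second, dimmer Rbpj probe set gave 0.04 and -0.22. With the mean of both probe sets the differences were 0.51 (adjusted p = 0.02) and 0.22 (adjusted p = 0.321). The receptor gene Notch3 and the target Heyl, both also found in mural cells, were at 0.40 and 0.49 in tumor-free mice (adjusted p = 0.0666 for both) and at -0.07 and 0.11 in tumor-bearing mice. In tumor-free mice Notch3 passed the threshold in 2 of 22 alternatives, quantile normalization (adjusted p = 0.036) and median centring (0.0382), and Heyl in 6, those included (0.0372 and 0.0463). Dlk1, a ligand-like inhibitor, was at 0.13 and 0.10.

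**Figure D4:**
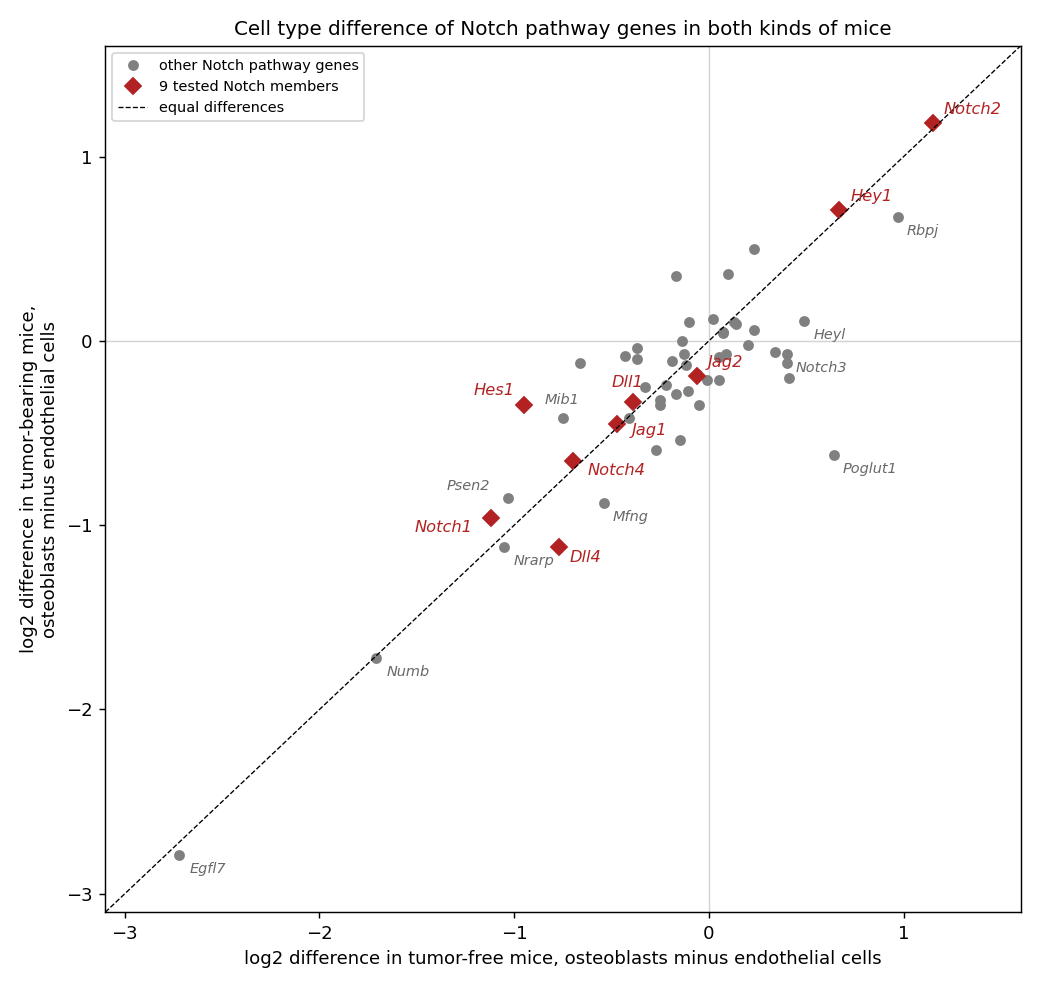
Log2 difference between osteoblasts and endothelial cells in tumor-free mice (horizontal) and in tumor-bearing mice (vertical) for the 9 tested Notch genes (diamonds) and 47 other pathway genes (circles), with a dashed line of equal differences. Egfl7 and Numb lie farthest to the lower left, Notch2 lies farthest to the upper right, and Hes1 lies above the line.

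The tumor comparisons ask whether Notch genes changed in bone cells of mice with EO771 growth. None of the 9 tested genes was called in osteoblasts or in endothelial cells by limma, and none had an unadjusted p under 0.05 in either. Of all genes tested 0.0563% were called in osteoblasts and 0.0141% in endothelial cells, and 9.78% and 4.59% had an unadjusted p under 0.05. The median tumor difference over the 9 genes was 0.05 in osteoblasts and 0.08 in endothelial cells. The 95% intervals bound the change that these arrays allow, and they differ in width between genes.

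Notch1 was the member whose osteoblast groups did not overlap, with all 3 tumor-bearing arrays (6.87 to 7.09) above all 3 tumor-free arrays (6.55 to 6.84). The same held for 14.5% of all genes tested, and the difference of 0.25 (95% interval -0.07 to 0.57) had an adjusted p of 0.619. In endothelial cells Notch1 differed by 0.08 (-0.24 to 0.41). No member's endothelial groups stood apart, where 10.5% of all genes did. Notch4 had the narrowest interval of the receptors, 0.01 (-0.25 to 0.27) in osteoblasts and -0.04 (-0.31 to 0.22) in endothelial cells. Notch2 differed by 0.17 (-0.25 to 0.59) and 0.13 (-0.29 to 0.55).

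None of the ligands was called. Dll4 differed by -0.15 (95% interval -0.48 to 0.17) in osteoblasts and by 0.20 (-0.13 to 0.52) in endothelial cells. Jag1 differed by 0.10 (-0.45 to 0.65) and 0.09 (-0.46 to 0.64), Dll1 by -0.11 (-0.48 to 0.26) and -0.18 (-0.55 to 0.19), and Jag2 by 0.02 (-0.21 to 0.25) and 0.15 (-0.07 to 0.38). For Jag1 these intervals allow an increase of up to 0.65 in osteoblasts, and for Jag2 of up to 0.25. Among the targets, Hes1 differed by 0.25 (-0.32 to 0.82) in osteoblasts and -0.35 (-0.92 to 0.23) in endothelial cells. Hey1 differed by 0.05 (-0.76 to 0.86) and 0.01 (-0.80 to 0.82), the widest intervals of the 9 genes. Hey2 means differed by -0.42 and -0.05.

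**Figure D5:**
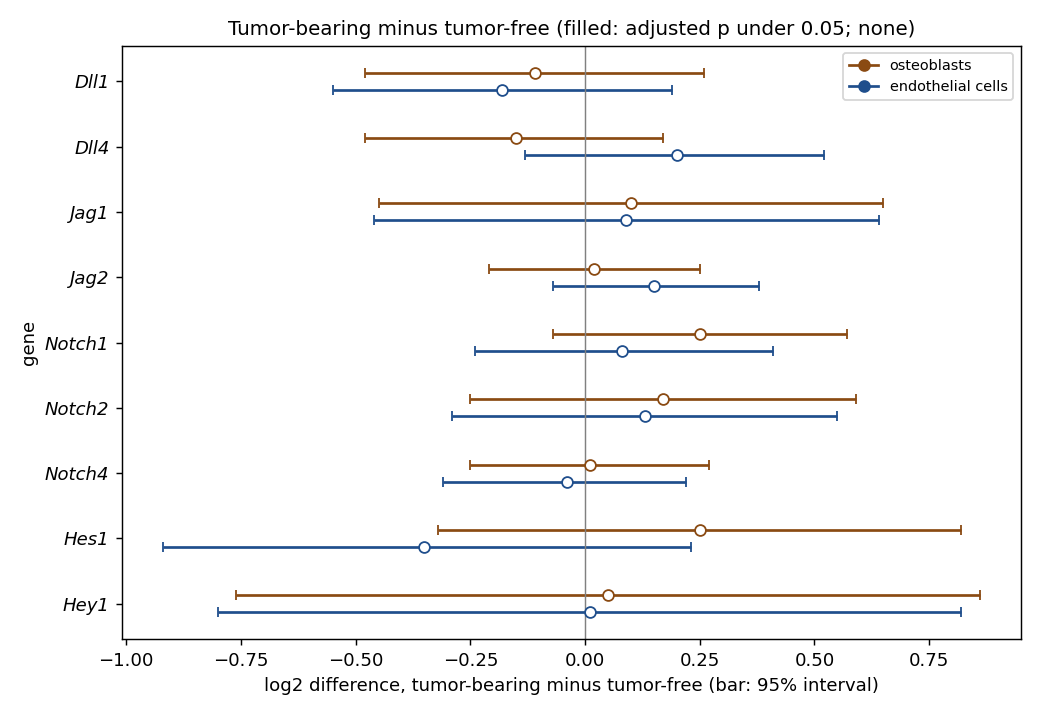
Log2 difference of the 9 tested Notch genes, tumor-bearing minus tumor-free, in osteoblasts and in endothelial cells, with 95% intervals. No point is filled, since no adjusted p was under 0.05. All intervals cross 0, and those of Hey1 are the widest.

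The difference between both tumor effects, osteoblasts minus endothelial cells, was not called for any of the 9 genes, where 0.0281% of all genes tested were called, and none had an unadjusted p under 0.05 (6.47% of all genes). The estimates farthest from 0 were 0.60 (95% interval -0.21 to 1.40) for Hes1 and -0.35 (-0.81 to 0.11, adjusted p = 0.835) for Dll4. The same term measures how far the gap between the cell types changed with tumor.

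Of the 47 other pathway genes none was called in any of the 3 tumor comparisons by limma, with 4 at an unadjusted p under 0.05 in osteoblasts, 0 in endothelial cells and 2 for the difference of effects. All genes tested had shares of 9.78%, 4.59% and 6.47%, so the list held no more than its share at this threshold. The 4 in osteoblasts were the Hes family genes Hes3 (-0.36, adjusted p = 0.36) and Hes6 (-0.33, adjusted p = 0.412), the E3 ligase gene Mib2 (-0.20, adjusted p = 0.482) and the receptor gene Notch3 (-0.29, adjusted p = 0.50). For each of these the tumor-bearing and tumor-free arrays did not overlap, as for 6 of the 47 in all and 14.5% of all genes tested. Notch3 was at 6.84, 6.79 and 7.01 in tumor-free and 6.53, 6.74 and 6.52 in tumor-bearing osteoblasts, and differed by 0.19 in endothelial cells (adjusted p = 1). Its difference of effects was -0.47 (95% interval -0.87 to -0.08, adjusted p = 0.70), and that of Hes3 was -0.39 (adjusted p = 0.751). The smallest p in endothelial cells belonged to Mib2 (-0.16), the receptor-modifying glycosyltransferase gene Poglut1 (1.03) and the co-regulator gene Snw1 (0.31), each with an adjusted p of 1. Snw1 had a difference of effects of -0.52 (adjusted p = 0.783). Rbpj, Heyl, Nrarp, Dlk1 and Egfl7 had tumor differences of -0.23 to 0.08 (osteoblasts) and 0.09 to 0.21 (endothelial cells), and none was called.

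Marker lists of other cells also differed between tumor-bearing and tumor-free samples, as values without a test. Of 10 marrow stromal markers all 10 were higher in tumor-bearing endothelial samples, with a median difference of 0.73 and array medians of 8.03 to 8.09 against 7.32 to 7.48. In osteoblast samples none of the 10 was higher, with a median difference of -0.53 and array medians of 7.75 to 8.47 against 8.84 to 9.07. Pericyte and smooth muscle markers, a list that holds Notch3, had array medians of 6.80 to 7.04 in tumor-bearing and 6.27 to 6.6 in tumor-free endothelial samples, while the median difference over its 11 markers was 0.03, with 8 of 11 higher. Of 12 neutrophil markers 1 was higher in tumor-bearing osteoblast samples, with a median difference of -0.80, and chondrocyte and monocyte and macrophage markers had median differences of 0.17 and 0.08 there. The part of these cells in the tumor differences of the Notch genes was not tested. The other lists were those for arterial endothelium, sinusoidal and venous endothelium, all blood cells, B and plasma cells, erythroid cells and mammary epithelium. Their median tumor differences were -0.52 to 0 (osteoblasts) and -0.19 to 0.08 (endothelial cells). Of 10 arterial markers 8 were higher in tumor-bearing endothelial samples and 2 in tumor-bearing osteoblast samples, with median differences of 0.06 and -0.20. Mammary epithelial markers, which EO771 cells could bring, had array medians of 5.53 to 5.83 in all 4 groups, close to the arrays' 40th percentiles.

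In the order of group means, neighbors of the same cell type were not called different for Dll4, Notch1, Notch2 or Notch4. Notch2 ran from 7.32 ± 0.19 (SD, n = 3) in tumor-bearing osteoblasts through 7.16 ± 0.40 in tumor-free osteoblasts and 6.14 ± 0.16 in tumor-bearing endothelial cells to 6.01 ± 0.12 in tumor-free ones. Notch1 ran from 7.95 ± 0.09 in tumor-bearing and 7.87 ± 0.27 in tumor-free endothelial cells to 6.99 ± 0.11 in tumor-bearing and 6.74 ± 0.16 in tumor-free osteoblasts. Dll4 ran from 6.91 ± 0.13 and 6.71 ± 0.12 in tumor-bearing and tumor-free endothelial cells to 5.94 ± 0.15 in tumor-free and 5.79 ± 0.26 in tumor-bearing osteoblasts. Notch4 ran from 7.14 ± 0.10 in tumor-free and 7.09 ± 0.17 in tumor-bearing endothelial cells to 6.44 ± 0.14 in tumor-bearing and 6.43 ± 0.08 in tumor-free osteoblasts.

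The genes whose values followed Notch2 and Notch1 most closely over the 12 arrays were found by Pearson correlation among all genes tested, for the members with the difference farthest from 0 in each direction. Notch2 was followed by Srgap3 (r = 0.974), Lgals1 (0.972), Fads3 (0.967), Fign (0.962) and Lrp1 (0.958). Notch1 was followed by Adamts1 (r = 0.981), Iigp1 (0.975), Sema3a (0.973), Lmtk2 (0.973) and Afdn (0.969). The arrays fall into 2 cell types, so any gene with a difference between them scores high, and these values are a description.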

How the data were processed

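RNA of 12 sorted cell samples was amplified by single primer isothermal amplification and hybridised to Affymetrix Mouse Gene 1.0 ST arrays, per the labels' protocols. The authors' deposited log2 values were made with the Bioconductor package affy per the submitters' processing notes. Its version, the summary method, the normalization and any scan batch are not stated in these notes or labels, and the deposited scaling was kept. Log2 values of dim probe sets understate fold changes.

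Of 34760 probe sets, 21640 had 1 symbol, 1321 several and 11799 none in the platform annotation. Symbols were updated by Entrez number in RefSeq's GRCm38.p6 table, which matched 21553. For each of 19937 genes the probe set with the highest mean was used, and the 14217 above the array's 40th percentile on at least 3 arrays were tested. In R 4.3.3, limma 3.58.1 fitted the 4 group means over the 12 arrays (eBayes) and tested 5 contrasts, with two-sided p-values and Benjamini-Hochberg adjustment over all genes tested. The steps were tested on simulated data. P-values set a difference against the gene's spread within groups, pooled over all 4 groups and moderated by eBayes. Having 3 arrays a group limits the precision.

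The members and lists were chosen with earlier results of these data known. Beside the 10 members, the rule named Notch3, Rbpj, Heyl, Nrarp, Dlk1, Egfl7 and, per contrast, up to 6 pathway genes called with the smallest p, or 3 where none was called. Groups come from sample titles. The sources used here do not say whether the titles' replicate numbers pair the samples. Same-numbered samples' deviations from their group means correlated at -0.0521 to 0.074. With 3 arrays a group, such correlations cannot show whether samples of the same number share mice. Other settings tried were a 60th percentile filter or none, median centring, quantile normalization, array weights, robust eBayes with a trend, averaged probe sets, a replicate block, a fit of only the groups compared, each array left out in turn, and replicate 3 of both osteoblast groups left out.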

Additional observations from a re-analysis of the deposited data

How the results depend on the processing

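No setting turned the direction of a called Notch gene, and no setting called a Notch gene in a tumor comparison. In tumor-free mice Hes1 was not called with quantile normalization (-0.90, adjusted p = 0.0611) or with only the groups compared (-0.95, adjusted p = 0.145). The 22 settings gave ranges of -0.85 to -0.69 for Dll4, -1.23 to -0.97 for Notch1, 0.96 to 1.35 for Notch2 and -0.76 to -0.66 for Notch4 in tumor-free mice, and of -1.27 to -1.04, -1.01 to -0.90, 1.09 to 1.28 and -0.75 to -0.58 in tumor-bearing mice. Quantile normalization and median centring left the median difference of all genes between -0.05 and 0.04. Counts over all genes were unsteady in the tumor comparisons. The osteoblast count of 8 became 5 with quantile normalization, 1 with array weights, 0 with only the groups compared, 1 with the replicate number as a block, 45 without replicate 3 of both osteoblast groups, and 1 (without tumor-bearing endothelial replicate 1) to 25 (without tumor-bearing osteoblast replicate 3) with single arrays left out. The endothelial count of 2 ran from 2 to 6, the 6 without tumor-bearing endothelial replicate 2. The count for the difference of effects, 4, became 1 with the replicate block, 8 without replicate 3 of both osteoblast groups, and 0 (without tumor-free osteoblast replicate 1) to 7 (without tumor-bearing osteoblast replicate 1). The replicate block changed no call of a Notch member. It ended the call of Rbpj in tumor-bearing mice (adjusted p = 0.0706) and called Heyl in tumor-free mice (adjusted p = 0.0377). The 6 other pathway genes called in tumor-bearing mice became 3 with only the groups compared, and 3 to 7 with single arrays left out, the 3 without tumor-bearing osteoblast replicate 1. The causes of these changes were not tested. The signs that turned belonged to differences that were not called. With array weights these were Hey1 (difference of effects, -0.14) and Jag1 (endothelial tumor effect, -0.05). With quantile normalization they were Egfl7 (osteoblast tumor effect, -0.01), Hey1 (-0.06 for the difference of effects and -0.01 for the osteoblast tumor effect), Jag1 and Notch2 (difference of effects, -0.03 and -0.04) and Notch4, whose endothelial tumor effect was 0. Without replicate 3 of both osteoblast groups they were Dlk1 (difference of effects, 0.06), Heyl (cell types in tumor-bearing mice, -0.01), Jag1 (-0.16 for the difference of effects and -0.07 for the osteoblast tumor effect) and Rbpj (osteoblast tumor effect, 0.07). With single arrays left out, osteoblast tumor effects that crossed 0 ran from -0.02 to 0.13 (Dlk1), -0.08 to 0.14 (Egfl7), -0.19 to 0.26 (Hey1), -0.04 to 0.25 (Jag1), -0.03 to 0.08 (Jag2), -0.04 to 0.35 (Notch2), -0.05 to 0.08 (Notch4), -0.11 to 0.22 (Nrarp) and -0.23 to 0.08 (Rbpj). Endothelial tumor effects ran from -0.04 to 0.32 (Egfl7), -0.33 to 0.37 (Hey1), -0.13 to 0.39 (Jag1), -0.02 to 0.24 (Notch1) and -0.10 to 0.05 (Notch4). Differences of effects ran from -0.11 to 0.04 (Dlk1), -0.09 to 0.25 (Dll1), -0.29 to 0.06 (Egfl7), -0.32 to 0.38 (Hey1), -0.29 to 0.23 (Jag1), -0.17 to 0.22 (Notch2), -0.04 to 0.13 (Notch4) and -0.26 to 0.07 (Nrarp), and the Heyl difference between cell types in tumor-bearing mice from -0.01 to 0.22.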
